A study of Mus musculus with 42 samples.

Results

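The 10 genes described here encode transcription factors that set the identity of stomach and intestine epithelium: Cdx1, Cdx2, Isx, Hnf4a, Hnf4g, Gata4, Gata6, Pdx1, Sox2 and Nkx6-3. They were chosen by symbol from the 22180 genes that a probe set with a single symbol measured, and each of the 10 had 1 such probe set. Levels are log2 intensities, so a difference of 1 is a doubling of signal, and levels of different genes are not set against each other because probes differ in brightness.

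The gut tube is patterned along its length by such factors. Cdx1 and Cdx2, homeobox proteins of the caudal family, are the classical intestinal regulators: loss of Cdx2 lets gastric genes appear in intestine, and Cdx2 in stomach drives intestinal metaplasia. Sox2 marks the foregut and stomach, Pdx1 the antral stomach, duodenum and pancreas, and Nkx6-3 the antrum, where gastrin cells depend on it. Hnf4a and Hnf4g are related nuclear receptors that act together on enterocyte genes. Isx is an intestinal homeobox repressor of carotenoid and lipid uptake genes. The zinc finger proteins Gata4 and Gata6 are factors of the endoderm, with Gata4 restricted to its anterior and proximal stretches.

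The arrays hold RNA of epithelium from untreated adult mice, at least 7 to 8 weeks old and not selected for sex, in 42 samples of 15 groups. The Lgr5-EGFP-IRES-CreERT2 line (IRES) makes a green reporter from the locus of Lgr5, a stem cell marker and Wnt target, so its brightness follows Lgr5 transcription. Its pylorus, the stomach outlet, gave 4 samples of bright cells (Lgr5Hi), 4 of dim cells (Lgr5Lo) and 2 unsorted ones. Its small intestine, with no stretch named, gave 2 Lgr5Hi, 2 Lgr5Lo, 2 crypt and 1 unsorted sample, and its colon 3 Lgr5Hi, 3 Lgr5Lo and 2 unsorted samples. Pylorus of Lgr5-EGFP-DTR mice (DTR), whose reporter allele also carries the diphtheria toxin receptor, gave 3 samples each of Lgr5Hi, Lgr5Lo and Lgr5Neg cells. The mouse model field of these 9 samples names the IRES line, and the title was followed. Wildtype pylorus (WT), sorted with an anti-Aqp5 antibody, gave 4 Aqp5Pos and 4 Aqp5Neg samples. Intestinal samples thus exist for the IRES line alone. The sorted samples are pools of cells, so fewer cells of a type and less RNA per cell cannot be told apart.

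Array medians lay between 3.82 and 4.25, a guide to background. A difference from a group near these medians depends on that background in its size and is no exact fold. This holds for Cdx1, Cdx2 and Isx in pylorus, for Sox2 and Nkx6-3 in intestine and for Pdx1 in colon. It holds in part for Hnf4g in IRES pylorus Lgr5Hi, where replicates 1 and 3 read 3.84 and 4.47. Lgr5, the sort gene, was highest in the bright gate of each organ: 8.66 to 8.81 in DTR Lgr5Hi, against 6.15 to 6.82 in Lgr5Lo and 4.41 to 4.87 in Lgr5Neg. The crypt samples, at 4.81 and 5.04, were the lowest of small intestine. Markers of squamous forestomach stayed near background in each group (means of 11 genes, 3.38 to 4.13), as did the 6 endothelial markers (3.10 to 3.95). A set of 3 arrays stood apart. Unsorted colon replicate 1 carried gastric genes, with Gkn1, a pit cell secretory protein, at 13.12. It is in no group compared, and it enters only the alternative fits over all IRES arrays or all 42 arrays, where it adds to the pooled spread. IRES pylorus Lgr5Hi replicate 3 and colon Lgr5Hi replicate 1 departed from their groups in some of the 10 genes, and values without them are given.

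Cdx2 and Pdx1 both lie on mouse chromosome 5, and in these arrays they had opposite organ patterns. The promoter sequences at hand hold 2 starts of Hnf4a, and a single probe set stood for the gene. The 250 bases before each of these starts, from RefSeq on GRCm38.p6, are shown 5′ to 3′ on the gene's strand so that the regulatory sequence of the contrasting pair and of the 2 Hnf4a starts can be read beside the levels. They cover chr5:147307250-147307499 on the minus strand for Cdx2 and chr5:147269847-147270096 on the plus strand for Pdx1. The Hnf4a stretches are chr2:163506607-163506856 and chr2:163546905-163547154 on the plus strand. RefSeq places the first base of the Hnf4a gene at 163506811, so the first of these stretches ends inside the gene. Capitals mark the GATA motif AGATAA.
Cdx2: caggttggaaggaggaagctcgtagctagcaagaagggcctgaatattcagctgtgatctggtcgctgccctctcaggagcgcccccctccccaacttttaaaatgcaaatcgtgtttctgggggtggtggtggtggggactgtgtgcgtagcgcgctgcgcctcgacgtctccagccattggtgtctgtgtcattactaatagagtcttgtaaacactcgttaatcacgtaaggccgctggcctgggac
Pdx1: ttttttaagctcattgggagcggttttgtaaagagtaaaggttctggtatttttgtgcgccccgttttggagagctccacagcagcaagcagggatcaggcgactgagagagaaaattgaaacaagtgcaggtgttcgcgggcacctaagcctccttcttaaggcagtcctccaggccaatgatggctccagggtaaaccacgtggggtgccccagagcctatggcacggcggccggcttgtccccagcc
Hnf4a start 1: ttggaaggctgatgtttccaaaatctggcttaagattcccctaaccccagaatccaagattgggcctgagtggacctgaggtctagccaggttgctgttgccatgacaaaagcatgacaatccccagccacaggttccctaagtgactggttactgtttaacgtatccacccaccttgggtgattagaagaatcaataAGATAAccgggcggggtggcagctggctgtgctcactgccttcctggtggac
Hnf4a start 2: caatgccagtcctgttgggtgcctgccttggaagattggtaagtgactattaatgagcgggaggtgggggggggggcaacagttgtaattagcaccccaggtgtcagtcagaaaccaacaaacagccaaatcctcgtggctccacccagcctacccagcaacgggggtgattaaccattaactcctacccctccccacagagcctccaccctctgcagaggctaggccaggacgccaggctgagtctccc

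Sequences were at hand for 5 of the 10 genes, with 6 promoters in all: Cdx2, Isx, Hnf4a, Pdx1 and Sox2. They were searched on both strands for a CDX motif (TTTATNG), an HNF4 motif (CAAAGNNCA), a GATA motif (AGATAA) and a SOX motif (ACAATG). The GATA motif of the first Hnf4a start, 52 to 47 bases before it, was the only match in these windows. Over the 32851 promoters of the table, 9.8% held the CDX motif, 5.5% the HNF4 motif, 10.0% the GATA motif and 10.7% the SOX motif. The base composition of the 6 stretches differed widely. The Sox2 promoter was 72.0% G or C with 27 CG dinucleotides, against medians of 52.4% and 6 over the table, while the Isx promoter held 2 CG dinucleotides. The Cdx2 and Pdx1 promoters, at 55.2% and 54.8% with 13 and 10 CG dinucleotides, were alike in composition.

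**Figure D1:**
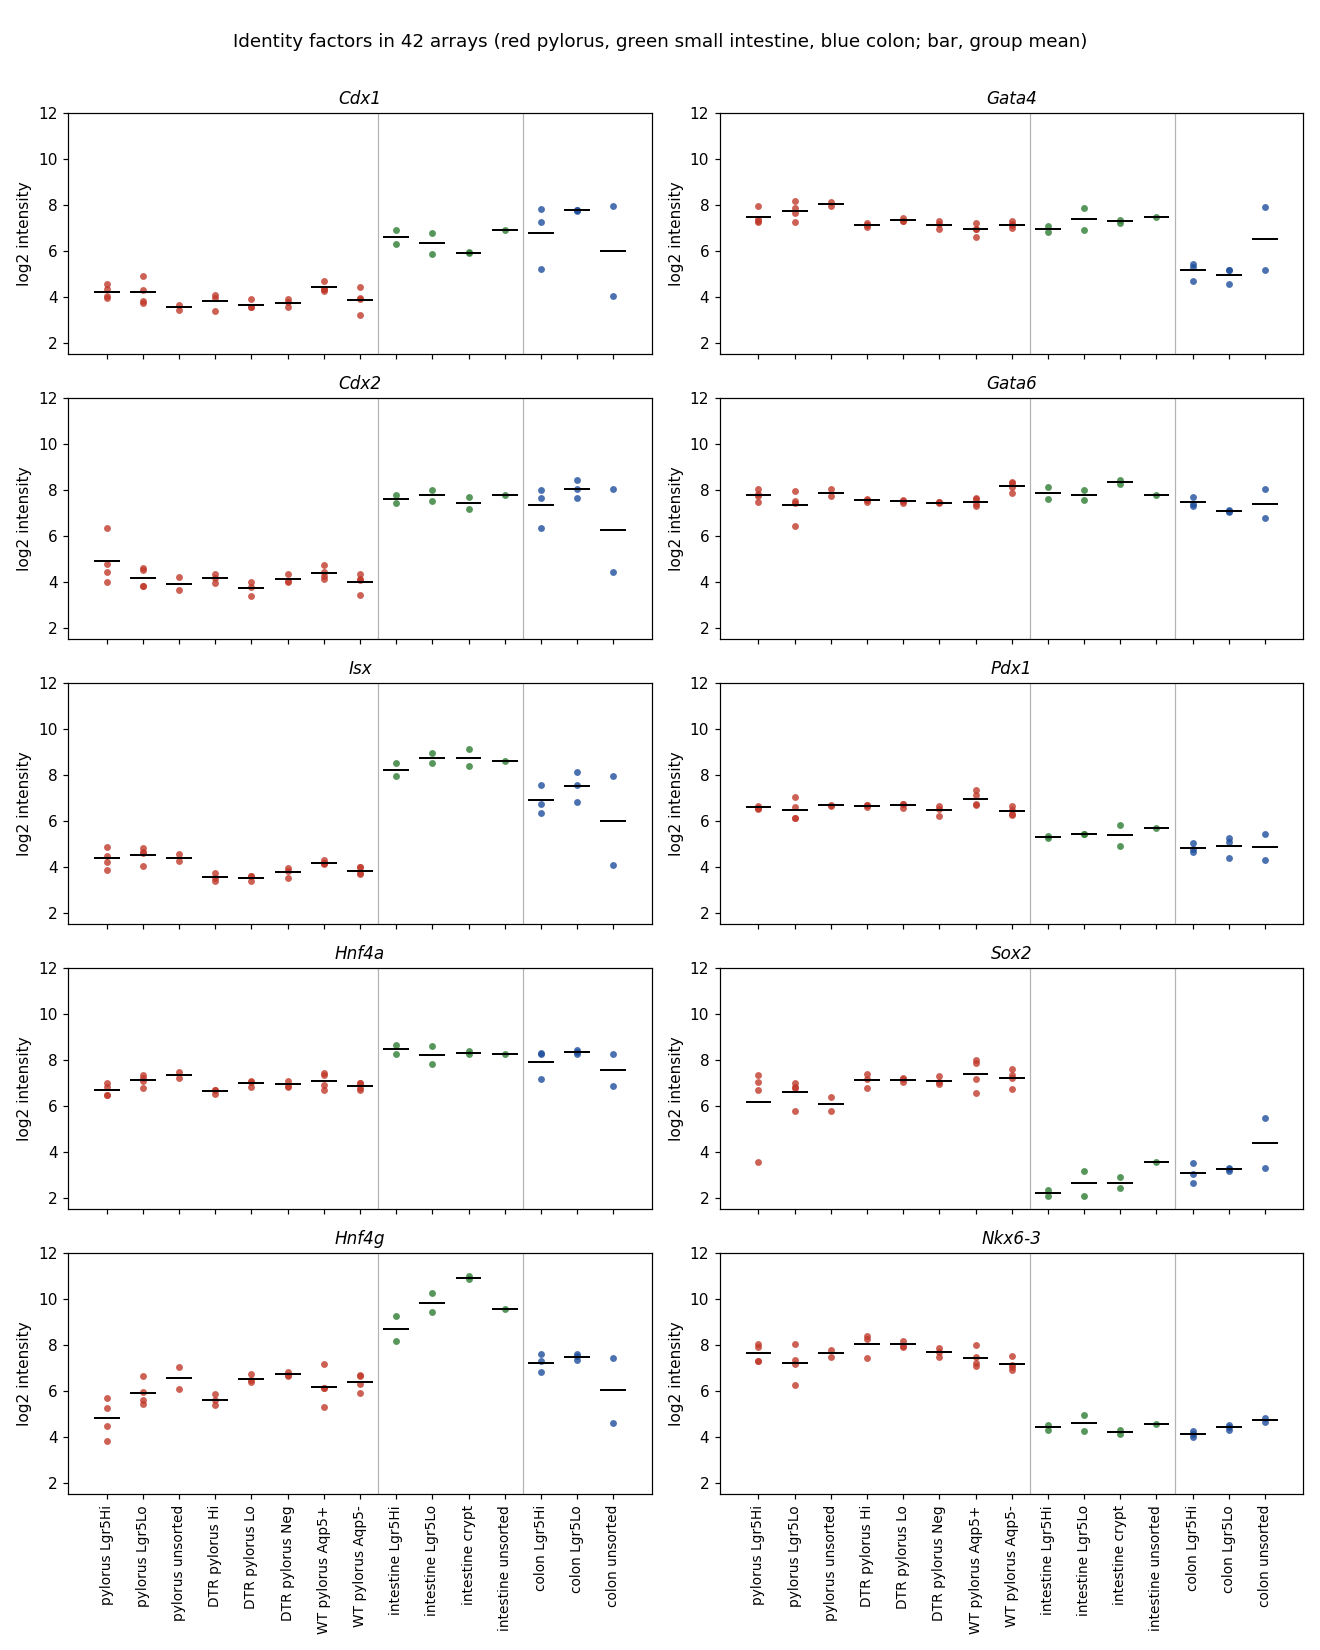
Log2 intensity of each of the 10 genes (1 panel each) in every array, by sample group, with pylorus in red, small intestine in green and colon in blue. Points are arrays and bars are group means. Cdx1, Cdx2 and Isx sit low in the 27 pyloric arrays, Sox2, Nkx6-3 and Pdx1 sit high there, Gata4 is low in sorted colon and Gata6 lies between 6.45 and 8.44 throughout.

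The 3 intestinal homeobox genes separated the organs. Cdx2, the main intestinal regulator, read 7.45 and 7.79 in small intestine Lgr5Hi and 6.36, 7.67 and 8.01 in colon Lgr5Hi. In IRES pylorus Lgr5Hi it read 4.00, 4.79, 6.35 and 4.44. Replicate 3 was thus well above its group and just under the lowest colon value. Cdx2 was lower in pylorus than in small intestine by a log2 difference of -2.72 ± 0.48 (SE, n = 4 and 2, adjusted p = 0.000333). Against colon the difference was -2.45 ± 0.43 (n = 4 and 3, adjusted p = 0.000348). Without pyloric replicate 3 these differences were -3.21 and -2.94. The difference from colon was -2.95 without colon Lgr5Hi replicate 1, which read 6.36. Over the 27 pyloric arrays Cdx2 ran from 3.38 to 6.35 (median 4.14), and over 14 intestinal arrays, leaving out unsorted colon replicate 1, from 6.36 to 8.42 (median 7.73).

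Cdx1, its relative in the crypt, read 6.30 and 6.89 in small intestine Lgr5Hi, 5.19, 7.27 and 7.80 in colon Lgr5Hi, and 3.93, 4.35, 4.03 and 4.56 in pylorus Lgr5Hi. The pyloric arrays were all lower, and colon replicate 1 was the lowest of the intestinal ones. The difference was -2.38 ± 0.47 from small intestine (adjusted p = 0.000938) and -2.54 ± 0.41 from colon (adjusted p = 0.000156), or -3.32 from colon without that array. Isx, the repressor of carotenoid and lipid uptake genes, read 7.94 and 8.54 in small intestine Lgr5Hi, 6.34, 7.58 and 6.76 in colon Lgr5Hi and 4.23, 3.88, 4.88 and 4.49 in pylorus Lgr5Hi. Its pyloric values were near the array medians, and the difference from small intestine was -3.87 ± 0.37 (adjusted p = 8.76e-08).

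The nuclear receptor genes Hnf4a and Hnf4g were also lower in pylorus. Hnf4a was well above background in stomach: pylorus Lgr5Hi read 6.49, 6.49, 6.82 and 7.02, against 8.28 and 8.67 in small intestine and 7.18, 8.32 and 8.25 in colon. The difference was -1.77 ± 0.29 from small intestine (adjusted p = 0.000154) and -1.21 ± 0.26 from colon (adjusted p = 0.00274), the smallest of the intestinal genes. With unsorted colon replicate 1 left out, 6 of 27 pyloric arrays reached the lowest intestinal level of Hnf4a, 7.18. That level was colon Lgr5Hi replicate 1. The next lowest intestinal array read 7.83, above the highest pyloric one at 7.49. Without colon Lgr5Hi replicate 1 the difference from colon was -1.58. Hnf4g read 3.84, 5.26, 4.47 and 5.72 in pylorus Lgr5Hi, 8.17 and 9.28 in small intestine Lgr5Hi, and 7.30, 7.61 and 6.83 in colon Lgr5Hi. Its differences were -3.90 ± 0.44 (adjusted p = 9.46e-07) and -2.42 ± 0.38 (adjusted p = 0.000119). By group mean Hnf4g was 10.95 in crypt, 9.86 in small intestine Lgr5Lo, 9.59 in the 1 unsorted array and 8.73 in Lgr5Hi. It was 7.5 and 7.25 in colon Lgr5Lo and Lgr5Hi and 4.82 in IRES pylorus Lgr5Hi. The crypt arrays had the lowest Lgr5 of small intestine (4.81 and 5.04). They also had its highest mean of 11 enterocyte markers (11.66 and 11.72). The crypt arrays did not overlap the Lgr5Lo arrays, while the 2 sorted colon groups overlapped.

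Sox2, Nkx6-3 and Pdx1 had the opposite pattern. Sox2, the foregut factor, read 6.70, 7.35, 3.56 and 7.03 in IRES pylorus Lgr5Hi, 2.32 and 2.09 in small intestine Lgr5Hi and 2.63, 3.51 and 3.05 in colon Lgr5Hi. In the intestinal groups it was under every array's median, apart from unsorted colon, and pyloric replicate 3, the array with high Cdx2, was near the intestinal level. Against this background level the difference was 3.95 ± 0.65 from small intestine (adjusted p = 0.000143) and 3.10 ± 0.57 from colon (adjusted p = 0.000681), or 4.82 and 3.96 without replicate 3. Elsewhere in the pylorus Sox2 lay between 5.77 and 8.01. Nkx6-3, the antral factor, read 7.31, 8.06, 7.32 and 7.91 in pylorus Lgr5Hi, 4.54 and 4.30 in small intestine and 4.01, 4.26 and 4.12 in colon. No pyloric array overlapped an intestinal one, replicate 3 included, and the differences were 3.23 ± 0.34 (adjusted p = 3.31e-07) and 3.52 ± 0.30 (adjusted p = 1.21e-08).

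Pdx1 stood above background in small intestine too (4.93 to 5.81), while in sorted colon (4.38 to 5.25) it came nearer to the array medians. In pylorus Lgr5Hi its 4 values lay between 6.53 and 6.67, against 5.26 and 5.33 in small intestine and 5.03, 4.64 and 4.76 in colon. The differences, 1.3 ± 0.28 (adjusted p = 0.00257) and 1.78 ± 0.25 (adjusted p = 2.34e-05), were smaller than those of Sox2 and Nkx6-3. Over all arrays the lowest pyloric Pdx1 level was 6.11 and the highest intestinal one 5.81. Between small intestine and colon the Lgr5Hi difference was 0.48 (95% interval -0.13 to 1.10, adjusted p = 0.550).

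The GATA genes differed from both patterns. Gata4 read 7.27, 7.30, 7.38 and 7.94 in pylorus Lgr5Hi, 6.83 and 7.09 in small intestine Lgr5Hi and 5.41, 4.70 and 5.31 in colon Lgr5Hi, so that only the colon arrays were low. It was higher than in colon by 2.33 ± 0.27 in pylorus (adjusted p = 1.38e-06) and by 1.82 ± 0.32 in small intestine (adjusted p = 0.000811). Between pylorus and small intestine the difference was 0.51 (95% interval -0.11 to 1.14, adjusted p = 0.309). Gata6 lay between 6.45 and 8.44 in all 42 arrays. Its differences between organs in Lgr5Hi cells were -0.10 (95% interval -0.71 to 0.52) for pylorus minus small intestine, 0.31 (-0.23 to 0.86) for pylorus minus colon and 0.41 (-0.24 to 1.06) for small intestine minus colon, with adjusted p of 0.887, 0.589 and 0.669.

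Counted together, 8 of the 10 genes were called between Lgr5Hi pylorus and small intestine (13.5% of all genes) and 9 between Lgr5Hi pylorus and colon (8.3%). Pylorus had 3 of the 10 genes higher than small intestine (5.12% of all genes were) and 5 lower (8.37% of all genes). Against colon 4 were higher (3.42%) and 5 lower (4.88%), with Gata4 as the addition. The median over the 10 genes, -0.93 and -0.45, beside 0.08 and 0.03 over all genes, mixes these directions. Between small intestine and colon 1 of the 10, Gata4, was called higher (1.68% of all genes) and 0 lower (1.72%, either direction 3.4%). At an unadjusted p of 0.05, 3 of the 10 passed, Gata4 among them, beside 2877 of all 22180 genes. Isx, at 1.35 (95% interval 0.54 to 2.15, adjusted p = 0.0607), and Hnf4g, at 1.48 (0.52 to 2.43, adjusted p = 0.0913), were the other two, and both missed the threshold. Isx was called without colon Lgr5Hi replicate 2 (1.69, adjusted p = 0.0196). The small intestine rests on 2 arrays a gate.

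Dim cells of the IRES line gave the same organ calls between pylorus and intestine. Lgr5Lo pylorus had 3 genes higher than small intestine (4.31% of all genes) and 5 lower (5.07%, either direction 9.38%), and 4 higher (3.05%) and 5 lower (4.5%, either direction 7.55%) than colon. Cdx2 read 3.80, 4.49, 4.61 and 3.80 in pylorus Lgr5Lo, 7.52 and 8.00 in small intestine Lgr5Lo and 7.63, 8.04 and 8.42 in colon Lgr5Lo. These groups stood apart by -3.59 ± 0.48 (adjusted p = 1.31e-05) and -3.86 ± 0.43 (adjusted p = 8.33e-07). Without small intestine Lgr5Lo replicate 2 the calls against small intestine of Cdx1 (adjusted p = 0.108), Hnf4a (0.314) and Pdx1 (0.119) were lost, leaving 5. Pdx1 was also lost without small intestine Lgr5Lo replicate 1 (0.143) or pylorus Lgr5Lo replicate 1 (0.0552), and Hnf4g against colon without colon Lgr5Lo replicate 2 (0.0508). Between small intestine and colon 2 of the 10 were higher (2.5% of all genes) and 0 lower (2.89%, either direction 5.39%). They were Gata4, at 2.44 ± 0.32 (adjusted p = 1.43e-05), and Hnf4g, at 2.36 ± 0.46 (adjusted p = 0.00180). Hnf4g was not called without small intestine replicate 2 (1.94, adjusted p = 0.0578).

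**Figure D2:**
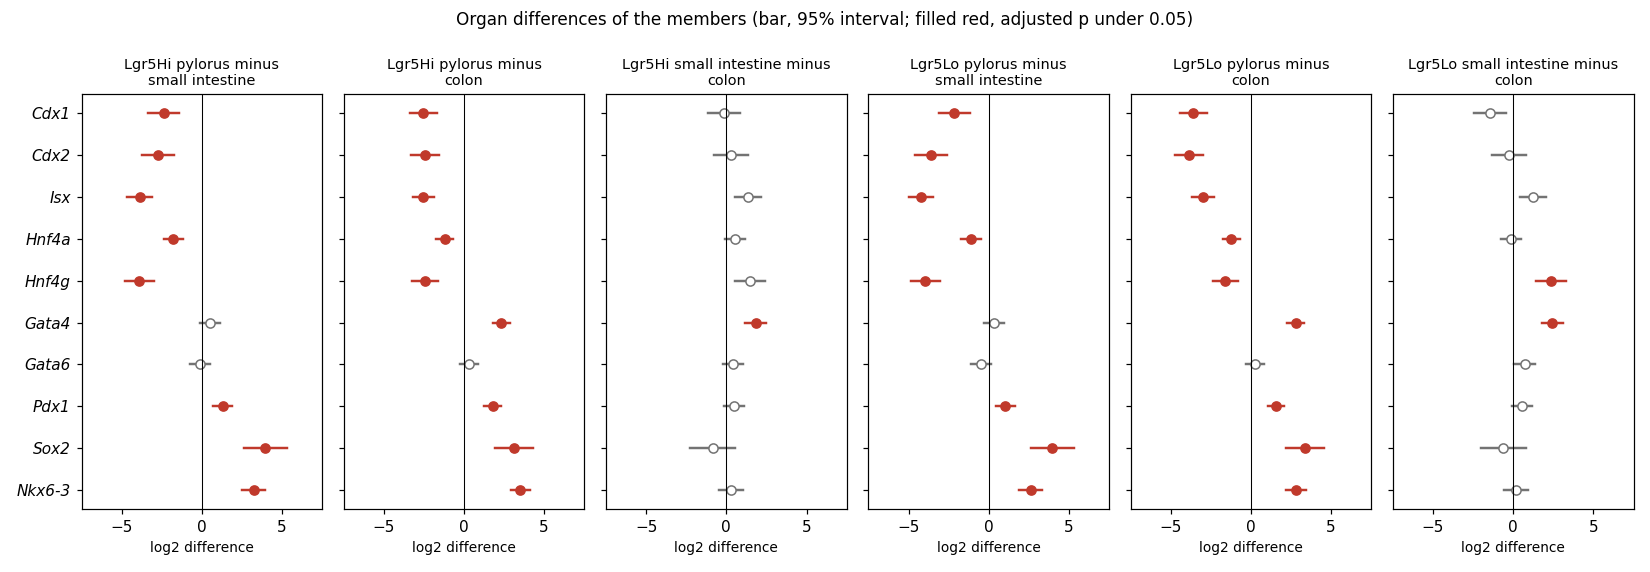
Log2 difference between organs of each of the 10 genes in Lgr5Hi and Lgr5Lo cells of the IRES line, 1 panel per comparison. Dots are fitted differences, bars are 95% intervals, and filled red marks an adjusted p under 0.05. The 5 intestinal genes lie left of 0 in each pylorus comparison, Pdx1, Sox2 and Nkx6-3 lie right of 0, and Gata4 lies right of 0 where colon is the second organ.

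Lists of gastric and intestinal epithelial genes also differed between pylorus and intestine. These lists name genes of each epithelium and were chosen with earlier results of these data known. Their split by organ is therefore no separate evidence on the factors. Whether the factors regulate these genes was not tested. Of 20 gastric epithelial genes 18 were higher in Lgr5Hi pylorus than in small intestine and 0 lower, with a median of 6.28 (0.08 over all genes). Gast, the gastrin gene, was higher by 8.13 ± 0.23, and Tff1, a pit cell trefoil peptide, by 7.56 ± 0.22 (adjusted p = 1.58e-16 and 1.78e-16). Of 27 intestinal epithelial genes 18 were lower and 0 higher, with a median of -2.34. Cdh17, liver-intestine cadherin and a known Cdx2 target, was lower by -5.90 ± 0.44 (adjusted p = 1.55e-09), and Slc5a1, the sodium-glucose transporter, by -3.92 ± 0.42 (adjusted p = 4.81e-07). Against colon 18 gastric genes were higher and 12 intestinal genes lower, but 2 intestinal genes were higher. One of them was Anpep, a brush border peptidase, at 4.88 ± 0.41 (adjusted p = 1.15e-08).

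Other factors of endoderm were divided. Of 28 measured, 8 were higher and 10 lower in Lgr5Hi pylorus than in small intestine, with a median of 0.17. Nr5a2, an orphan nuclear receptor of gut and pancreas, was lower by -3.79 ± 0.24 (adjusted p = 1.24e-10), and Vdr, the vitamin D receptor, by -3.58 ± 0.40 (adjusted p = 8.60e-07). Meis1, a homeobox cofactor, was higher by 3.05 ± 0.23 (adjusted p = 2.21e-09) and Foxq1, a forkhead factor of gastric mucin cells, by 3.21 ± 0.32 (adjusted p = 1.80e-07). Gata5, the third endodermal GATA gene, was also higher than in small intestine in pylorus, by 1.29 ± 0.33 (adjusted p = 0.00898). It was higher than in colon by 3.53 ± 0.29 in pylorus (adjusted p = 7.42e-09) and by 2.24 ± 0.34 in small intestine (adjusted p = 0.000169).

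Position genes of the Hox clusters were called in the colon comparisons. Of 12 colon and posterior genes 8 were lower in Lgr5Hi pylorus than in colon, 7 were lower in Lgr5Hi small intestine than in colon, and 0 were called between pylorus and small intestine, where Hoxd11 had the smallest p (0.57, adjusted p = 0.0942). Hoxd13, the most posterior gene of its cluster, differed by -3.66 ± 0.33 between pylorus and colon and by -4.08 ± 0.39 between small intestine and colon (adjusted p = 3.41e-08 and 3.73e-07). Of 9 anterior genes 4 were lower than in colon in pylorus and 4 in small intestine, Hoxa5 among them at -2.41 ± 0.26 and -2.70 ± 0.31 (adjusted p = 5.67e-07 and 4.58e-06). The 4 were Hoxa2, Hoxa3, Hoxa5 and Hoxb5 in both comparisons, genes known for anterior body position, and all were higher in colon.

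**Figure D3:**
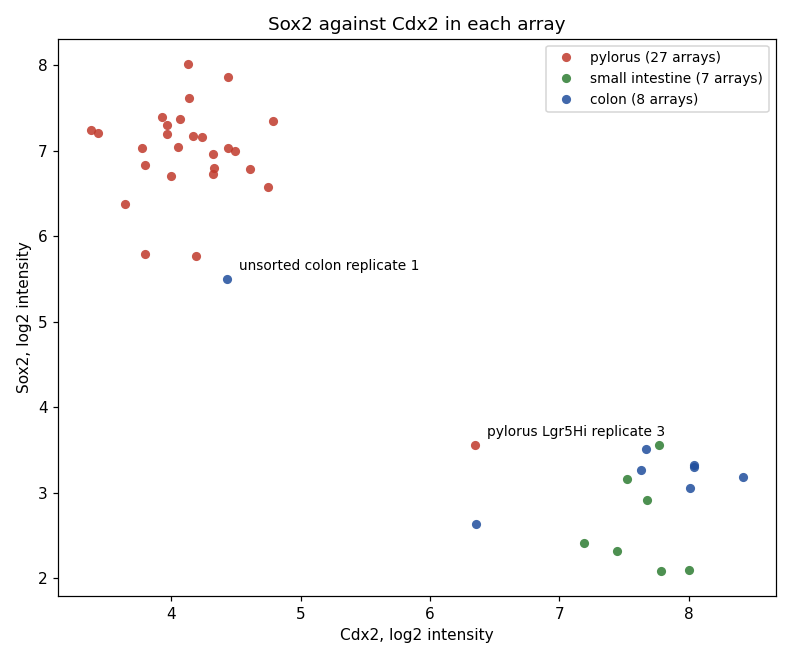
Sox2 level against Cdx2 level (both log2 intensity) in each of the 42 arrays, with pylorus in red, small intestine in green and colon in blue. Pyloric arrays lie at high Sox2 and low Cdx2 apart from Lgr5Hi replicate 3 (Sox2 3.56, Cdx2 6.35), and unsorted colon replicate 1 (Sox2 5.50, Cdx2 4.43) lies beside the pyloric arrays.

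The 2 arrays named in the plot of Sox2 against Cdx2 departed from their groups in different ways and in different genes. IRES pylorus Lgr5Hi replicate 3 kept Nkx6-3 at 7.32, Pdx1 at 6.53 and Gast at 12.87, all within its group. Its Cdx1, at 4.03, and its Cdh17, at 3.27, were at the pyloric level, while Muc2, the goblet cell mucin, was the highest of its group at 7.54, against 5.21 to 6.46. Unsorted colon replicate 1 read 4.03 for Cdx1, 4.06 for Isx, 4.62 for Hnf4g, 7.90 for Gata4 and 2.92 for Cdh17, levels of the pyloric arrays. Its Nkx6-3, at 4.67, its Pdx1, at 4.30, and its Gast, at 5.13, were at the intestinal level, and Atp4a, the parietal cell proton pump, reached 12.69 against at most 11.57 in IRES pylorus. Unsorted colon replicate 2 read 7.96 for Cdx1, 8.04 for Cdx2, 3.30 for Sox2 and 5.15 for Gata4, as sorted colon did.

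Within an organ few of these factors were called between gates. In the DTR pylorus 0 of the 10 genes were higher in Lgr5Hi than in Lgr5Neg cells (8.84% of all genes) and 1 was lower (9.48%, either direction 18.3%). Sox2 read 6.80, 7.39 and 7.17 in Lgr5Hi and 7.04, 6.96 and 7.30 in Lgr5Neg cells, a difference of 0.02 (95% interval -0.34 to 0.38, adjusted p = 0.961), and Cdx2 differed by 0.03 (-0.35 to 0.41, adjusted p = 0.943). Pdx1 differed by 0.19 (-0.12 to 0.51, adjusted p = 0.439), Gata4 by -0.01 (-0.31 to 0.28, adjusted p = 0.963) and Nkx6-3 by 0.34 (-0.14 to 0.82, adjusted p = 0.357). Nkx6-3 read 7.44, 8.27 and 8.42 in Lgr5Hi cells, and without the first of these it was called at 0.64 (adjusted p = 0.0150). Lgr5Hi cells had 0 genes higher (2.02% of all genes) and 1 lower (2.94%, either direction 4.97%) than Lgr5Lo cells. Between Lgr5Lo and Lgr5Neg cells limma called 0 of the 10 (2.2% of all genes, 1.57% higher and 0.631% lower). At an unadjusted p of 0.05, 1 of the 10 passed, beside 2949 of all 22180 genes.

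The exception was Hnf4g, which was lower in bright cells. It read 5.38, 5.89 and 5.60 in DTR Lgr5Hi, 6.48, 6.42 and 6.73 in Lgr5Lo and 6.83, 6.72 and 6.67 in Lgr5Neg. Lgr5Hi lay below both other groups without overlap, by -1.12 ± 0.15 from Lgr5Neg (n = 3 and 3, adjusted p = 0.000251) and by -0.92 ± 0.15 from Lgr5Lo (adjusted p = 0.00518). Both comparisons share the Lgr5Hi samples. In a single fit over all 42 arrays, where the spread of every group is pooled, neither passed (adjusted p = 0.199 and 0.788). In the IRES pylorus Hnf4g read 3.84, 5.26, 4.47 and 5.72 in Lgr5Hi and 5.43, 5.60, 5.96 and 6.66 in Lgr5Lo, groups that overlapped. The difference was -1.09 ± 0.36 (n = 4 and 4, adjusted p = 0.122). With the replicate number as a block, as if equal numbers were pairs, limma gave an adjusted p of 0.0136. Hnf4a was lower in the bright gate by -0.31 (95% interval -0.60 to -0.01, adjusted p = 0.153) from DTR Lgr5Neg, and was not called.

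**Figure D4:**
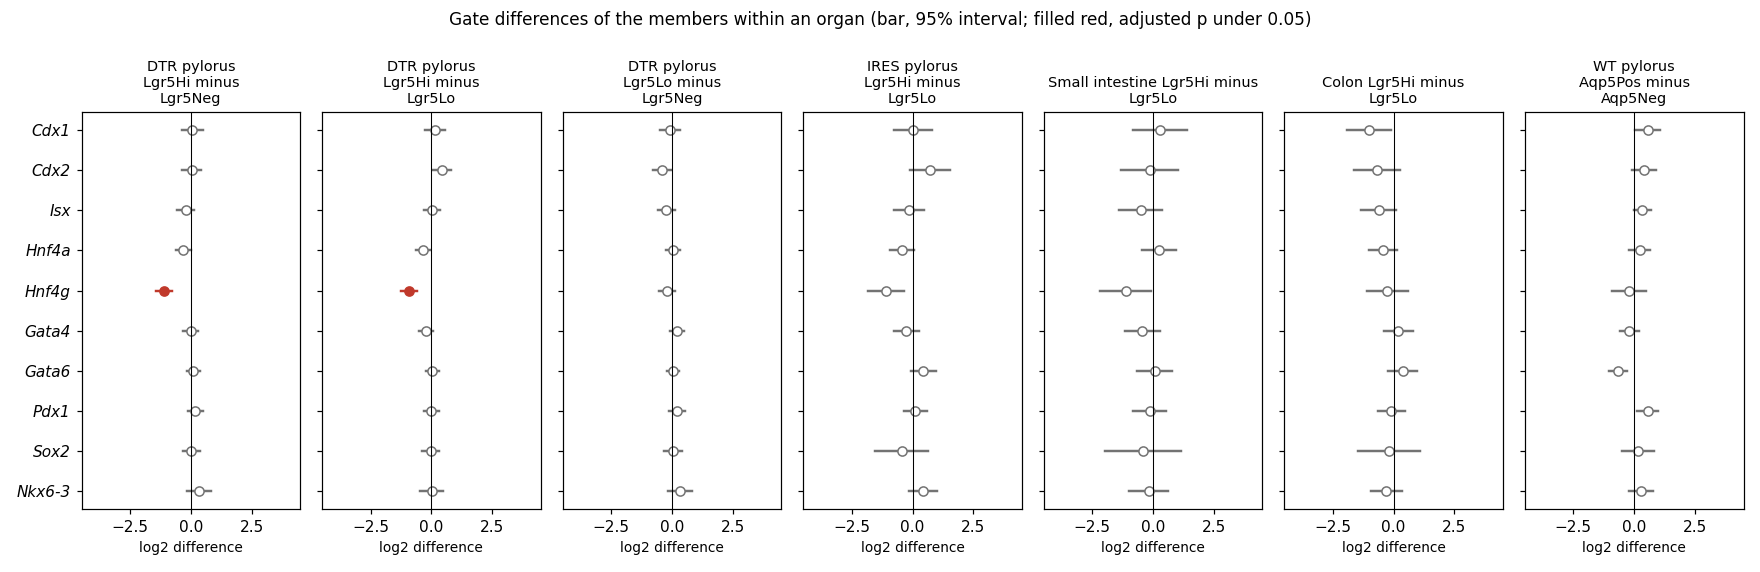
Log2 difference between sort gates of each of the 10 genes within an organ, 1 panel per comparison. Dots are fitted differences, bars are 95% intervals, and filled red marks an adjusted p under 0.05. Hnf4g in the DTR comparisons of Lgr5Hi cells (-1.12 and -0.92) is the only filled point.

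Markers of other epithelial cells followed the order of Hnf4g by group in the DTR pylorus and in sorted and crypt samples of small intestine. In WT the pit markers differed while Hnf4g was not called. The mean of 6 pit cell markers, all 6 above the array median in every sorted pyloric array, was 7.22 to 8.08 in DTR Lgr5Hi, 10.48 to 11.01 in Lgr5Lo and 11.55 to 11.76 in Lgr5Neg. In the IRES pylorus it was 10.01 to 11.63 in Lgr5Hi and 11.70 to 12.07 in Lgr5Lo, and 1 of the 6 was called lower in Lgr5Hi (1.42% of all genes). Between these lines the order was the reverse. Hnf4g averaged 4.82 in IRES Lgr5Hi and 5.62 in DTR Lgr5Hi, where the pit markers were lower. In Lgr5Lo the means were 5.91 and 6.54, again with lower pit markers in DTR. The lines were not compared by a test. The 11 enterocyte markers averaged 5.34 to 6.38 in IRES Lgr5Hi and 6.40 to 7.82 in Lgr5Lo, with 1 called higher (0.911% of all genes) and 1 lower. In small intestine they averaged 7.17 and 9.49 in Lgr5Hi, 9.83 and 10.44 in Lgr5Lo and 11.66 and 11.72 in crypt, while Hnf4g read 8.17 and 9.28, then 9.45 and 10.27, then 10.95 on average. In WT pylorus the pit markers were 9.57 to 10.53 in Aqp5Pos and 11.64 to 11.78 in Aqp5Neg cells, and Hnf4g differed by -0.21 (95% interval -0.92 to 0.50, adjusted p = 0.749). The part of these cell types in the Hnf4g difference was not tested.

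**Figure D5:**
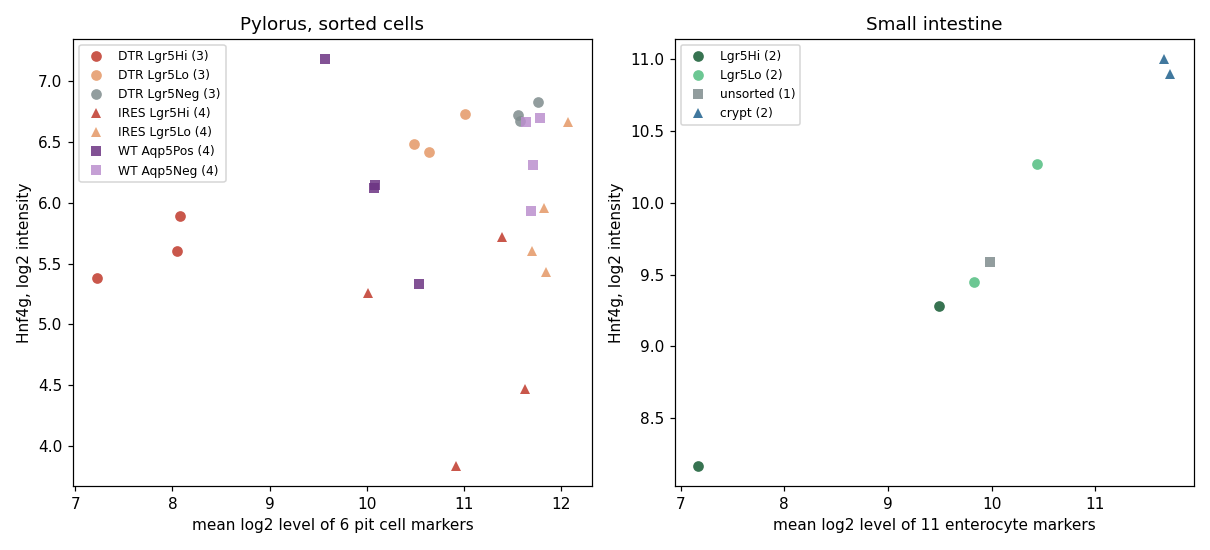
Hnf4g level (log2 intensity) against the mean level of 6 pit cell markers in the sorted pyloric arrays (left) and of 11 enterocyte markers in the 7 small intestine arrays (right), 1 point per array, with the number of arrays of each group in the legend. Within the DTR line, Lgr5Hi arrays are low on both axes of the left panel. The IRES Lgr5Hi arrays have the lowest mean Hnf4g of that panel (4.82) at pit marker means of 10.01 to 11.63. WT groups differ along the pit marker axis while their Hnf4g levels overlap, and the crypt arrays are high on both axes of the right panel.

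In the gate comparisons of the IRES line the fits without a replicate block held no call among the 10. In the pylorus limma called 0 without the block (2.34% of all genes, 0.911% higher and 1.42% lower). It put 1, Hnf4g, under an unadjusted p of 0.05, beside 3169 of all 22180 genes. With the block, which treats equal numbers as pairs, it called 1, Hnf4g (adjusted p = 0.0136). Sox2 differed there by -0.44 (95% interval -1.54 to 0.65, adjusted p = 0.790) with replicate 3 of the bright cells and by 0.43 without it. In small intestine 0 were called by limma (0.311% of all genes, 0.108% higher and 0.203% lower). There 1 passed unadjusted, beside 1164 of all 22180 genes. It was Hnf4g at -1.13 (-2.18 to -0.09, adjusted p = 0.848). In colon limma called 0, as it did of all genes (0% called, 1161 at an unadjusted p under 0.05). Cdx1, the 1 member that passed unadjusted, read 5.19, 7.27 and 7.80 in colon Lgr5Hi and 7.73, 7.79 and 7.79 in Lgr5Lo. Its difference of -1.02 (-1.93 to -0.11, adjusted p = 0.889) was -0.24 without colon Lgr5Hi replicate 1.

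In wildtype pylorus sorted for Aqp5 limma called 0 of the 10 genes (2.8% of all genes, 0.546% higher and 2.25% lower). At an unadjusted p of 0.05, 3 of the 10 passed, beside 4356 of all 22180 genes. Gata6 read 7.60, 7.67, 7.29 and 7.41 in Aqp5Pos and 8.31, 8.12, 8.35 and 7.86 in Aqp5Neg cells. Every Aqp5Pos array was lower, by -0.67 ± 0.18 (n = 4 and 4, adjusted p = 0.0693). With each array centred on its median Gata6 passed (-0.72, adjusted p = 0.0463). In the DTR pylorus, where Aqp5 read 10.39 to 10.49 in Lgr5Hi and 7.63 to 7.77 in Lgr5Neg cells, Gata6 differed by 0.09 (95% interval -0.17 to 0.36, adjusted p = 0.688). Pdx1 read 7.37, 6.73, 6.69 and 7.11 in Aqp5Pos and 6.25, 6.47, 6.32 and 6.67 in Aqp5Neg cells, all higher in Aqp5Pos, with a difference of 0.55 ± 0.20 (adjusted p = 0.158). Cdx1, at 0.55 (0.03 to 1.07, adjusted p = 0.229), was the third.

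Of 28 other endodermal factors 5 were higher and 4 lower in DTR Lgr5Hi than in Lgr5Neg cells, where 8.84% of all genes were higher and 9.48% lower, with a median of 0.09 (0.02 over all genes). Sox9, a factor of progenitor cells, was higher by 2.44 ± 0.23 (adjusted p = 1.48e-05), and Klf4, a factor of differentiated epithelium, lower by -2.78 ± 0.23 (adjusted p = 5.27e-06). Nr1h4, the bile acid receptor FXR, was lower by -1.85 ± 0.14 (adjusted p = 2.96e-06). Of 20 gastric epithelial genes 6 were higher and 10 lower, beside the same shares of all genes. In the WT comparison 1 of the 28 factors was higher (0.546% of all genes) and 2 lower (2.25%), with a median of -0.03 (0.06 over all genes), and 25 were not called. Sox9 was higher by 1.20 ± 0.20 (adjusted p = 0.00839) and Klf4 and Nr1h4 lower by -1.52 ± 0.33 and -0.91 ± 0.19 (adjusted p = 0.0311 and 0.0234).

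The bright minus dim difference was also compared between organs. In limma's test of the difference itself 0 of the 10 genes were called for pylorus against small intestine (0.0406% of all genes, 0.0271% higher and 0.0135% lower). At an unadjusted p under 0.05 there were 0 of the 10, beside 1803 of all 22180 genes. For pylorus against colon 0 were called (0.415% of all genes, 0.126% higher and 0.289% lower), with 1 at an unadjusted p under 0.05, beside 2046 of all genes. The members' medians were 0.22 and 0.14, against -0.05 and -0.03 over all genes.

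Across the means of 14 groups, leaving out unsorted colon, Cdx2 and Sox2 had a Pearson correlation of -0.96 and Cdx1 and Cdx2 one of 0.97, values set largely by the split of pylorus from intestine that these groups share. Gata6 correlated at 0.09 with Cdx2 and -0.20 with Sox2. For each gene the 3 named genes of most similar pattern were found in the same 14 means. They were Cldn3, Slc1a1 and Nr5a2 for Cdx2 (0.988 to 0.983) and Ccl6, Reg4 and Nr5a2 for Cdx1 (0.980 to 0.976). Isx had Otc, Guca2b and Car4 (0.992 to 0.988), Hnf4a had Rnf186, B4galnt2 and Isx itself (0.976 to 0.961), and Hnf4g had Tnfrsf14, Reep6 and Tmem82 (0.971 to 0.964). For Sox2 they were Car5b, Tff2 and Slc9b2 (0.977 to 0.974), for Nkx6-3 Slc9a4, Adam28 and Tesc (0.990 to 0.987), and for Pdx1 Sgce, Meis2 and Pgc (0.973 to 0.968). Gata4 had Gata5os, Zfpm1, which encodes a GATA cofactor, and Gata5 (0.929 to 0.888). The nearest to Gata6 was Gata6os, its antisense neighbour, at 0.863. Rskr and Fam3c followed at 0.803 and 0.802.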

How the data were processed

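Per the labels, glands were released with EDTA, digested with TrypLE and sorted, and RNA was amplified to cDNA, labelled with biotin and hybridised to Affymetrix arrays. The deposited table holds the authors' log2 intensities for 41345 probe sets. The submitters' processing notes name RMA, oligo, limma 3.26.8, R 3.2.3 and Partek, with no order. Background correction and summarization are the authors' own, and array number limits precision. A single symbol was assigned to 23521 probe sets, more than 1 symbol to 1814 and no symbol to 16010. Single-symbol probe sets gave 22180 genes, each by its probe set with the highest mean.

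Using limma 3.58.1 under R 4.3.3, linear models with 1 mean per group were fitted, followed by eBayes and Benjamini-Hochberg adjustment over all genes, separately for IRES (unsorted small intestine and colon left out), DTR and WT, and were tested on simulated data. Called means an adjusted p below 0.05. The labels call the samples biological replicates and say no more, so p-values measure the spread between these samples. No batch is named in the labels. Alternatives covered the arrays fitted, the replicate block, trend and robust eBayes, median centring, quantile normalization, the mean of a gene's probe sets, a filter on dim genes and leaving out each array.

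The 10 genes and all gene lists were chosen with earlier results of these data known. Named genes are these 10, Lgr5, Aqp5, up to 4 genes of a list with the smallest p in a comparison, and the 3 genes nearest each member in pattern (unnamed gene models left out). Genes named for single arrays (Gkn1, Muc2, Atp4a) and Hoxa5, Gata5, Sox9, Klf4 and Nr1h4 across comparisons were picked after their values were seen. Deviations of equally numbered samples from their group means correlated at 0.16, 0.10, 0.27 and 0.30 in the IRES pylorus. In colon the values were 0.18, 0.14 and 0.24. These ranges overlap those of DTR (-0.11 to 0.15) and WT (-0.02 to 0.17). Between organs the values were -0.22 to 0.11. The IRES pylorus range overlaps these at its low end only, and the colon values all lie above them. Small intestine has 2 pairs only (0.37 each). The labels name no pairing, so whether replicate numbers pair the gates is not known.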

Additional observations from a re-analysis of the deposited data

Results flagged for a closer look

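Among 40 sets of 4 arrays (10 genes in 4 groups), 1 array was set apart from the other 3 by Dixon's criterion at 95%, which chance meets in about 1 of 20: Gata4 in IRES pylorus Lgr5Hi replicate 4 read 7.94, against 7.27 to 7.38 in the others. Unsorted colon, which entered no comparison, showed signal above the sorted colon arrays. In its replicate 1 Gata4 read 7.90, 2.49 above the highest sorted colon array, and Sox2 read 5.50, 1.99 above it. The cause was not tested.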

How the results depend on the processing

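Small intestine has 2 arrays in each gate, and in groups of 2 to 4 arrays a difference of about 1 on the log2 scale can miss the threshold. No difference of the 10 genes that was called changed sign under any alternative run. The counts of members called in Lgr5Hi pylorus stayed at 8 against small intestine and 9 against colon under each alternative. Leaving out 1 array at a time gave 1 to 2 calls for Lgr5Hi small intestine against colon (2 without colon Lgr5Hi replicate 2), 5 to 8 for Lgr5Lo pylorus against small intestine, 8 to 9 for Lgr5Lo pylorus against colon, 1 to 3 for Lgr5Lo small intestine against colon, and 1 to 2 for DTR Lgr5Hi against Lgr5Neg.

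For Lgr5Hi small intestine against colon the count rose from 1 to 3 with the replicate block, though equal numbers are not known to pair organs. It rose to 2 when dim genes were filtered (Isx, adjusted p = 0.0476). For Lgr5Lo small intestine against colon it was 4 in place of 2 when only these groups were fitted, with Cdx1 and Isx added, and 3 with the replicate block (Isx, adjusted p = 0.0123). For Lgr5Lo pylorus against small intestine it was 6 in place of 8 when only these groups were fitted, without Hnf4a (adjusted p = 0.103) and Pdx1 (0.143). With the replicate block the IRES pylorus count was 1 in place of 0 (Hnf4g). The block did not change the counts of the gates of small intestine and colon. In 1 fit over all 42 arrays the DTR counts for Lgr5Hi against Lgr5Neg and against Lgr5Lo were 0 in place of 1. Median centring gave 1 in place of 0 in WT (Gata6). With all 25 IRES arrays, unsorted colon replicate 1 included, Cdx1 (adjusted p = 0.0615) and Hnf4g (0.0651) lost calls in Lgr5Lo pylorus against small intestine and colon. Leaving out that array, an alternative added after seeing the data, gives the first fit again by construction, since the unsorted groups then hold 1 array each, and tests nothing. The number of all genes called also moved. Against 2993 for Lgr5Hi pylorus and small intestine it was 1385 and 1779 without small intestine Lgr5Hi replicate 1 or 2, and against 754 for small intestine and colon 404 without replicate 1. In Lgr5Lo cells it was 1003 in place of 2081 for pylorus and small intestine with only these groups fitted, 1116 in place of 1675 for pylorus and colon without colon replicate 3, and 587 (without small intestine replicate 1) to 1928 in place of 1196 for small intestine and colon. In 1 fit over 42 arrays DTR gave 1515 in place of 4062 (Lgr5Hi and Lgr5Neg), 132 in place of 1102 (Lgr5Hi and Lgr5Lo) and 24 in place of 488 (Lgr5Lo and Lgr5Neg). Leaving out 1 DTR array lowered the second to as few as 325 (without Lgr5Lo replicate 3; 438 without replicate 2, 732 without Lgr5Hi replicate 1) and the third to as few as 181 (without Lgr5Lo replicate 1), with 200 to 294 without Lgr5Lo replicate 2 or any Lgr5Neg replicate. Over all settings the gates gave 74 to 879 in the IRES pylorus (518), 0 to 155 in small intestine (69), 0 to 20 in colon (0) and 196 to 1170 in WT (621). The differences between organs of the bright minus dim difference gave 3 to 62 (9) and 11 to 250 (92). Where no cause is given, it was not tested.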
